A study of Mus musculus with 9 samples.

Results

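The 6 diabetic kidney libraries of a mouse RNA sequencing study were pooled and compared with its 3 control diet libraries, to find differences from control that were present with and without the test compound dehydrozingerone (DHZ). The members were all 9 of the 9 libraries in the series, assigned to groups by the sample titles, because the treatment field of the labels names the compound for every library. The 3 control libraries came from mice put on a diet with 11.32% of calories from fat at 6 weeks of age (NCD vehicle). The 6 diabetic libraries came from mice put at the same age on a diet with 49.0% of calories from fat and injected 2 times with streptozotocin (STZ), a toxin of insulin-producing beta cells, at 30 mg/kg on days 60 and 63, with blood glucose tested on day 65. Of these, 3 had no compound (HFD-STZ vehicle) and 3 had DHZ, a curcumin analogue found in ginger, by mouth at 50 mg/kg for 2 weeks (HFD-STZ DHZ). Both diabetic groups therefore share the high-fat diet and STZ and differ in DHZ. The labels name neither strain nor sex and do not say that each library came from its own animal, so p-values measure the spread between these samples only. The batch dates in the labels differ between all libraries and run in step with the groups, so effects of batch and of group cannot be told apart.

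The kidney reabsorbs filtered glucose, amino acids, phosphate and calcium, and its proximal tubule also makes glucose and the active form of vitamin D. In the distal tubule calcium crosses the cell bound to calbindins, whose genes are targets of the vitamin D receptor. In diabetes the kidney is known for raised glucose production, altered sodium-glucose transport, tubular stress and, later, loss of podocytes and build-up of matrix.

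Total counts were 15.1 to 47.5 M per library, where M stands for mega, and mitochondrial genes took 39.2% to 60.4% of them. Nuclear protein-coding genes were left with 2.13 to 15.2 M, the lowest in HFD-STZ vehicle replicate 2. Y-linked transcripts were present in 1 of the 3 control and 3 of the 6 diabetic libraries, so the libraries come from both sexes. The libraries with them were NCD vehicle replicate 1, HFD-STZ vehicle replicates 2 and 3 and HFD-STZ DHZ replicate 3. The sexes are thus split unequally between the diabetic groups, and the part of sex in differences between those groups was not tested. Levels are given in CPM (counts per M of the scaled library size). All 15 markers of the early proximal tubule and all 12 of the thick ascending limb passed the filter on low counts. Adipocyte markers, which could come from fat around the kidney, summed to 16.3 to 85.5 CPM in NCD vehicle, 11.2 to 24.0 CPM in HFD-STZ vehicle and 26.1 to 94.4 CPM in HFD-STZ DHZ, and 9 of the 12 passed the filter. Whole tissue was sequenced, so fewer cells of a type and less RNA per cell cannot be told apart in any result here.

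With the 6 diabetic libraries taken as one group, 1 of the 17179 genes tested was called at an adjusted p below 0.05 by edgeR's quasi-likelihood test with Benjamini-Hochberg adjustment, or 0.00582% of them. That gene was S100g, which was lower. No gene was called higher, whereas DESeq2 called 35 higher, and 1062 genes (6.18%) had an unadjusted p below 0.05 in edgeR, 630 of them higher (3.67%) and 432 lower (2.51%). The difference between the diabetic groups counts as spread in this comparison, and that difference was wide, with 22.1% of genes called between HFD-STZ DHZ and HFD-STZ vehicle. A plainer measure, free of a model, is whether all 6 diabetic libraries lay on one side of all 3 control libraries. This held for 594 genes (3.46%), of which 282 (1.64%) were higher and 312 (1.82%) were lower. With 6 and 3 libraries some genes separate in this way by chance, so lack of overlap describes a gene and does not test it. With library size alone as the scaling, the median difference of all genes moved from 0.03 to -0.28 on the log2 scale, and the count split into 18 higher and 236 lower. Without HFD-STZ vehicle replicate 2 it was 419 higher and 427 lower. Both diabetic groups lay on the same side of control for 49.9% of all genes tested. Both were higher for 4292 genes and both lower for 4288, the background for the counts of list members below. These group values share the control libraries.

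S100g encodes calbindin-D9k, a small calcium-binding protein of the distal nephron and gut that carries calcium across the cell and is a classical target of vitamin D. Its level was 337, 461 and 385 CPM in the control libraries. It was 41.6, 41.9 and 58.0 CPM in HFD-STZ vehicle and 61.8, 76.2 and 50.4 CPM in HFD-STZ DHZ. Every diabetic library lay below every control library by a wide margin, and the ranges of the diabetic groups overlapped each other. The pooled level was 7.17-fold lower in diabetic kidney, a log2 difference of -2.84 (SE 0.27, 95% interval -3.43 to -2.25), with an adjusted p of 0.0040 in edgeR's quasi-likelihood test. Both diabetic groups were below control, HFD-STZ vehicle by a log2 difference of -3.06 (SE 0.28) and HFD-STZ DHZ by -2.65 (SE 0.28). The difference between them was 0.41 and was not called (adjusted p = 0.27, edgeR). Leaving out each library in turn kept the value between -2.96 and -2.71, with an adjusted p of at most 0.0453 in edgeR. With only the libraries that lack Y-linked transcripts the value was -2.84, and with only those that carry them it was -2.76, neither of them called with so few libraries. S100g lies on the strand opposite Ctps2, which stayed between 9.68 and 13.4 CPM in all 9 libraries.

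The 250 bases before the RefSeq start of S100g are shown because this is the one gene called. They lie at chrX:162964600-162964849 on the minus strand of GRCm38.p6, an older build than that of the counts. Capitals mark matches to AGGTCA, the half-site that nuclear receptors such as the vitamin D receptor bind in pairs, or to its reverse complement TGACCT.
S100g: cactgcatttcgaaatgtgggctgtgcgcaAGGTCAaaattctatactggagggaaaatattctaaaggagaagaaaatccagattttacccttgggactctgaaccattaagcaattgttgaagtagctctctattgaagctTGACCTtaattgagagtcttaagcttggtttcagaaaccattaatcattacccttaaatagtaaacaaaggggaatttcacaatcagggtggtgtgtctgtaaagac
The first match lies 220 to 215 bases before the start and the second, in the reverse direction, 107 to 102 bases before it. Such a match on either strand is found in 14% of the 32851 RefSeq promoter windows of this length. It describes the letters only and shows no binding.

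S100g was read beside the other genes of calcium, phosphate and vitamin D handling. All 20 listed genes were tested. Apart from S100g none was called. In every diabetic against every control library 2 were higher and 4, S100g included, were lower, where 1.64% and 1.82% of all genes were, and the median log2 difference was -0.06 against 0.03 for all genes. Both diabetic groups lay on the same side of control for 10 of the 20. Cyp24a1, the enzyme that breaks down active vitamin D, had 8.07, 5.03 and 7.92 CPM in control kidney. It had 22.2, 94.0 and 136 CPM in HFD-STZ vehicle and 96.3, 23.6 and 76.7 CPM in HFD-STZ DHZ. All 6 diabetic libraries were above control, with a spread of several-fold within each diabetic group. The pooled log2 difference was 3.41 (SE 0.63, 95% interval 2.05 to 4.78) and it was not called (adjusted p = 0.15, edgeR). Cyp24a1 overlaps Pfdn4 on the opposite strand. Pfdn4 was at 3.21 to 4.04 CPM in control, 3.20 to 4.74 in HFD-STZ vehicle and 5.18 to 7.64 in HFD-STZ DHZ. It was called higher in HFD-STZ DHZ than in control (adjusted p = 0.046, edgeR) and than in HFD-STZ vehicle (adjusted p = 0.049, edgeR).

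Cyp27b1, the enzyme that makes active vitamin D, had 59, 26 and 40 raw counts in the control libraries. It had 1, 0 and 4 in HFD-STZ vehicle and 1, 16 and 16 in HFD-STZ DHZ. Both diabetic groups were below control without overlap. The log2 difference was -3.19 (SE 0.69), which was not called (adjusted p = 0.27, edgeR) and rests on few counts. Vdr, the vitamin D receptor, was at 52.6, 46.7 and 43.8 CPM in control kidney, 83.4, 113 and 152 in HFD-STZ vehicle and 75.9, 66.0 and 76.2 in HFD-STZ DHZ. It was higher on both sides of treatment, without overlap, and not called (log2 difference 0.98, SE 0.31, adjusted p = 0.72, edgeR). Calb1, calbindin-D28k of the distal tubule, was at 112, 123 and 111 CPM in control kidney and at 38.8 to 85.8 CPM in the diabetic libraries. Both groups were below control by similar amounts, -0.93 and -1.07 on the log2 scale, and the pooled value of -1.0 (SE 0.28) was not called (adjusted p = 0.63, edgeR). Slc34a3, a phosphate carrier of the proximal tubule, was lower in both groups as well, at 2.5 to 4.28 CPM in control and 0.241 to 2.09 CPM in diabetic kidney (log2 difference -1.21, not called). The low end came from HFD-STZ vehicle, which had 25, 6 and 6 raw counts and lay below HFD-STZ DHZ in every library. HFD-STZ DHZ, with 70, 125 and 72 raw counts, lay nearer to control, which had 63, 103 and 98 at other library sizes. Pvalb, the calcium-binding parvalbumin of the early distal convoluted tubule, which is on the list for that segment, went the other way, with 3.69 to 5.57 CPM in control and 7.28 to 22.8 CPM in diabetic kidney (log2 difference 1.83, SE 0.40, not called, higher in both groups).

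Trpv5 and Kl of the calcium, phosphate and vitamin D list differed between the diabetic groups. Trpv5, the calcium entry channel of the distal tubule, was below control in HFD-STZ vehicle (-0.96 on the log2 scale) and above it in HFD-STZ DHZ (0.49), and this difference between them was called (adjusted p = 0.012, edgeR). Kl, which encodes Klotho, the co-receptor of the phosphate hormone FGF23, had the same pattern with -0.69 and 0.40 (adjusted p = 0.024, edgeR). Neither therefore belongs to the changes shared by the diabetic groups.

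**Figure D1:**
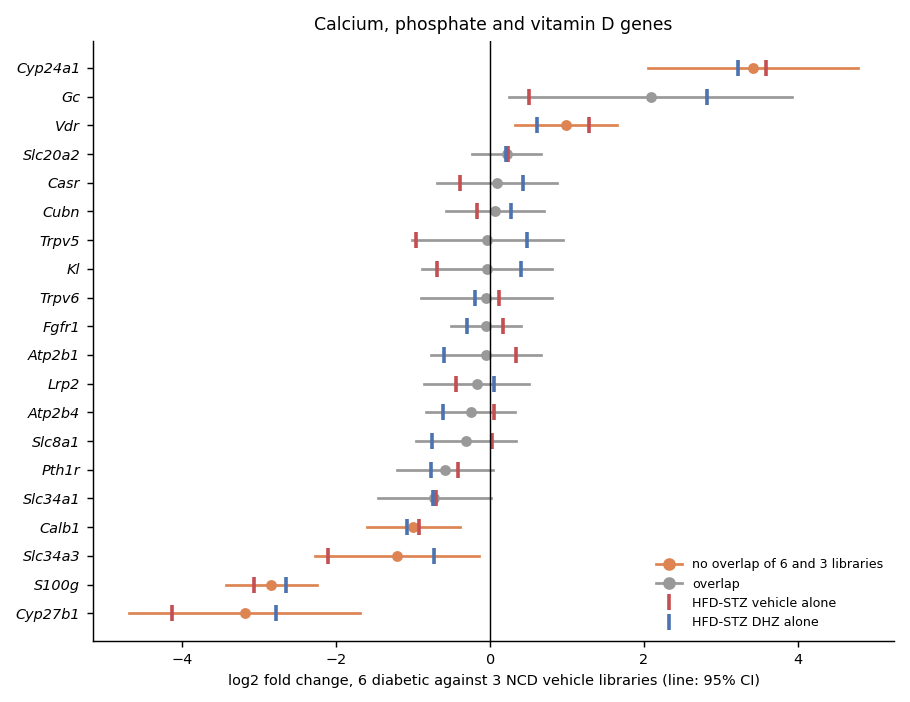
Log2 fold change of the 20 calcium, phosphate and vitamin D genes (x axis) in 6 diabetic against 3 control libraries, with 95% intervals as lines and the value of each diabetic group as a tick. S100g, Cyp27b1, Slc34a3 and Calb1 sit left of 0 and Cyp24a1 and Vdr right of it with both ticks on one side, while the ticks of Trpv5 and Kl straddle 0.

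A model with 3 groups takes the difference between the diabetic groups out of the spread, and its common dispersion was 0.0893 against 0.149 in the pooled model. In it the mean of the diabetic groups differed from control for 24 genes (0.14%) by edgeR's quasi-likelihood test, 5 higher (0.0291%) and 19 lower (0.111%). Both diabetic groups lay on the same side of control for 23 of the 24, and for 23 no diabetic library overlapped a control library. The 24 genes were all called for HFD-STZ DHZ against control, and 6 of them for HFD-STZ vehicle against control. DHZ differed from vehicle for 5 of them. The count depended on single libraries. It was 4 without NCD vehicle replicate 1 and 4 without replicate 2, 8 without replicate 3, 13 without HFD-STZ vehicle replicate 3, 9 without HFD-STZ DHZ replicate 2 and 12 without HFD-STZ DHZ replicate 3. It was 104 without HFD-STZ vehicle replicate 1, and 131 with a term for Y-linked transcripts, which kept all 24. With library size as the only scaling 28 genes were called, 14 of the 24 among them, and Col5a2 (adjusted p = 0.28, edgeR), Mdk (0.083), Abcc6 (0.25), Dzip1 (0.73), Ecm1 (0.14), Fam151a (0.11), Cyp2j7 (0.40), Ces2e (0.68) and Gm48114 (0.80) were not. The pooled comparison was also made apart in libraries without and with Y-linked transcripts, and the difference between these subsets was not tested. In that order the log2 difference was 2.74 and 4.16 for Sox9 and 2.88 and 5.85 for Slitrk4. It was -1.31 and -2.15 for Fam151a and -1.83 and -3.08 for Halr1. The only control library with Y-linked transcripts was NCD vehicle replicate 1, which had 12 raw counts of Sox9 and 1 of Slitrk4. S100g, Sox9 and the non-coding A830008E24Rik were called in each of the 9 sets that leave out a library, and the genes described next are among those called with all 9 libraries. Their names were taken after their values were seen.

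**Figure D2:**
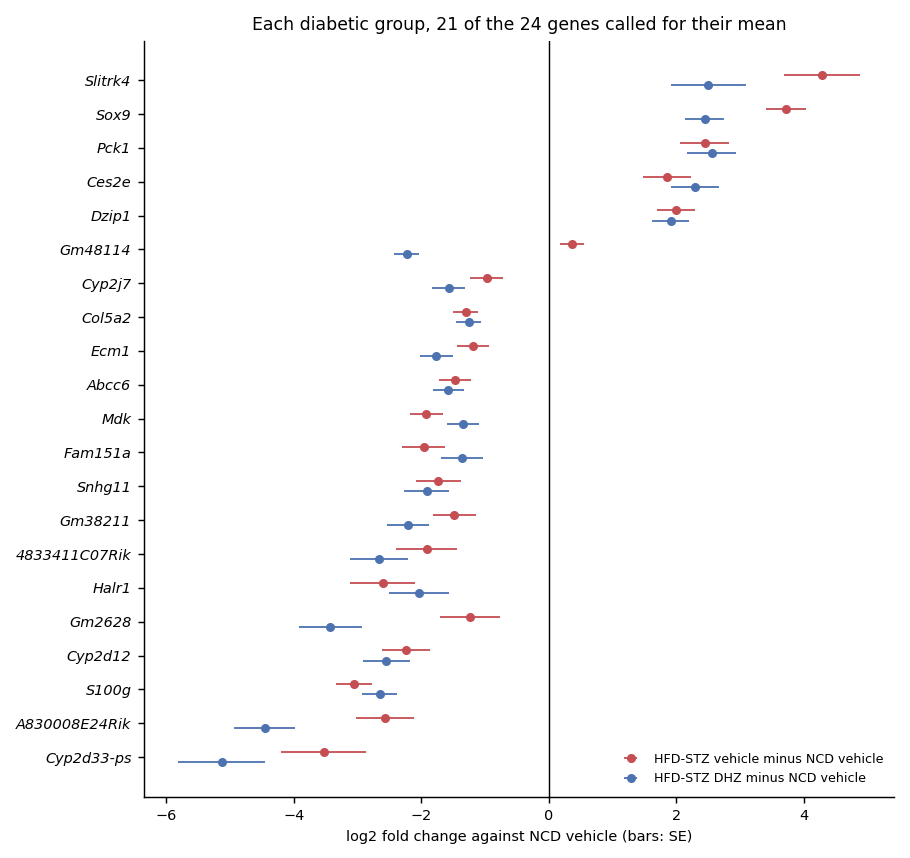
Log2 fold change against control (x axis, bars are SE) of HFD-STZ vehicle and HFD-STZ DHZ, each against the same 3 control libraries, for 21 of the 24 genes called for the mean of the diabetic groups. Slitrk1 is not drawn because it has 0 counts in every HFD-STZ vehicle library, and Gm48114 is the gene whose points lie on opposite sides of 0.

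Pck1, the cytosolic enzyme that controls glucose synthesis and, in the proximal tubule, follows ammonia production, rose in this model. It was at 287, 158 and 194 CPM in control kidney. It was at 673, 1242 and 1567 CPM in HFD-STZ vehicle and at 1342, 1324 and 1089 CPM in HFD-STZ DHZ. All 6 diabetic libraries were above control, and both groups were higher by like amounts, 2.45 (SE 0.39) and 2.56 (SE 0.39) on the log2 scale. The mean contrast was 2.5 (SE 0.36, adjusted p = 0.020, edgeR), while the pooled comparison gave a 5.67-fold higher level with an adjusted p of 0.085. The call held in 3 of the 9 sets that leave out a library, with an adjusted p of up to 0.198 without NCD vehicle replicate 2.

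The 250 bases before the start of Pck1 are given because it was the most abundant gene among the 24. They lie at chr2:173152823-173153072 on the plus strand of GRCm38.p6 in RefSeq, and capitals mark ACGTCA, the core of the cAMP response element (reverse complement TGACGT).
Pck1: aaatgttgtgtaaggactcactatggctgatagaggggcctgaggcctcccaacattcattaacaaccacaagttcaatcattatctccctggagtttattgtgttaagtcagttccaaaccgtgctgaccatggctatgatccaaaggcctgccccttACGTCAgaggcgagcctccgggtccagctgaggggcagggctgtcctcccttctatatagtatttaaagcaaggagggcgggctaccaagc
The match lies 91 to 86 bases before the start. One is found on either strand in 6.47% of the promoter windows, and it shows no binding.

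Of the 14 genes for glucose synthesis and ammonia production, all tested, Pck1 alone was called in the 3-group model and none in the pooled one. Both diabetic groups were above control for 7 and below it for 1, with a median of 0.05 without DHZ and 0.53 with it. Pck2, the mitochondrial form of the Pck1 enzyme, lay slightly lower in both groups, at 6.52 to 6.68 CPM in control and 3.37 to 6.51 CPM in diabetic kidney (log2 difference -0.28, not called).

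Among 10 tested sugar carriers none was called, and both diabetic groups lay on the same side of control for 8, against 49.9% of all genes. Both groups were higher for 3 of these and lower for 5. Slc2a2 and Slc5a2 were the members without overlap, where 1.64% of all genes were higher and 1.82% lower. Slc2a2, the glucose exit carrier of the early proximal tubule, was at 23.5, 19.0 and 14.6 CPM in control, 26.7, 45.5 and 31.3 in HFD-STZ vehicle and 27.7, 29.5 and 37.2 in HFD-STZ DHZ. It was higher in both groups without overlap (log2 difference 0.79, SE 0.25, adjusted p = 0.73, edgeR). Slc5a2, the sodium-glucose cotransporter SGLT2, was lower in both, at 58.1, 49.9 and 39.7 CPM in control, 20.8, 10.7 and 16.3 in HFD-STZ vehicle and 28.9, 32.1 and 33.9 in HFD-STZ DHZ. Its pooled log2 difference was -1.04 (SE 0.33, adjusted p = 0.74, edgeR), and the diabetic groups differed from each other (adjusted p = 0.019, edgeR), with DHZ nearer to control. Slc5a12, a lactate carrier of the same segment, was lower in both groups but overlapped control in 1 library (log2 difference -0.88, SE 0.25). Over the 15 early proximal tubule markers, 11 pooled estimates were lower, but the median was -0.71 without DHZ and 0.05 with it, and both groups were lower for 6 and higher for 2.

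Sox9, a transcription factor switched on in injured and regenerating tubule cells, rose in the 3-group model. It was at 0.642, 1.25 and 1.33 CPM in control kidney, 14, 9.98 and 19.3 CPM in HFD-STZ vehicle and 6.26, 6.19 and 5.55 CPM in HFD-STZ DHZ. No library overlapped between control and either diabetic group, and HFD-STZ DHZ lay between the other two groups. The mean contrast was 3.08 (SE 0.29, adjusted p = 0.0014, edgeR), with 3.72 (SE 0.32) in HFD-STZ vehicle and 2.44 (SE 0.31) in HFD-STZ DHZ. DHZ was lower than vehicle by 1.28 on the log2 scale, with an adjusted p of 0.010 in edgeR for that difference. In the pooled comparison, where this gap is spread, the adjusted p of Sox9 was 0.071.

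The tubular injury list held 15 tested genes, of which Sox9 was called in the 3-group model and none in the pooled one. Its median log2 difference was 1.18, while against the same control it was 0.04 without DHZ and 1.57 with it. Apart from Sox9, Cdkn1a and Cxcl1 were higher without overlap, as were 1.64% of all genes. Both groups were above control for 8 of the 15 and below it for 3, against 4292 and 4288 of all 17179 genes. Cdkn1a, the cell cycle inhibitor p21, was at 2.14, 1.62 and 1.79 CPM in control, 5.69, 5.26 and 6.82 in HFD-STZ vehicle and 2.85, 6.65 and 10.6 in HFD-STZ DHZ. Both groups were above control by like amounts, 1.69 and 1.86, and the pooled value of 1.78 (SE 0.37) was not called (adjusted p = 0.23, edgeR). Cxcl1, a neutrophil attractant, was at 0.0831 to 0.435 CPM in control and at 0.524 to 15.7 CPM in diabetic kidney, with 15.7 in HFD-STZ DHZ replicate 3 and 0.559 or less in 3 of the others. Its log2 difference of 3.70 (SE 1.28, not called) was 2.35 without that replicate. Havcr1, a kidney injury marker, and Lcn2, the injury protein lipocalin-2, had estimates above control in both groups but overlapped control. Their pooled log2 differences were 5.24 and 2.10, and neither was called. The summed level of the list was 330 to 599 CPM in control, 380 to 499 in HFD-STZ vehicle and 802 to 2384 in HFD-STZ DHZ. HFD-STZ vehicle thus lay within the range of control.

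Cdkn1a is also a target of p53. In the list of 18 p53 target and apoptosis genes both groups were above control for 10 and below it for 1. Of all 17179 genes, both were above control for 4292 and below it for 4288. The median of the list was 0.22 without DHZ and 0.72 with it. Ccng1, cyclin G1, and Trp53inp1, a p53-induced stress protein, were higher in both without overlap, with pooled log2 differences of 1.36 (SE 0.41) and 1.25 (SE 0.38) that were not called. Both were further above control in HFD-STZ DHZ, with an adjusted p for that difference of 0.0061 for Ccng1 and 0.0091 for Trp53inp1 (edgeR). With library size as the only scaling, 12 of the 18 estimates were higher instead of 16.

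**Figure D3:**
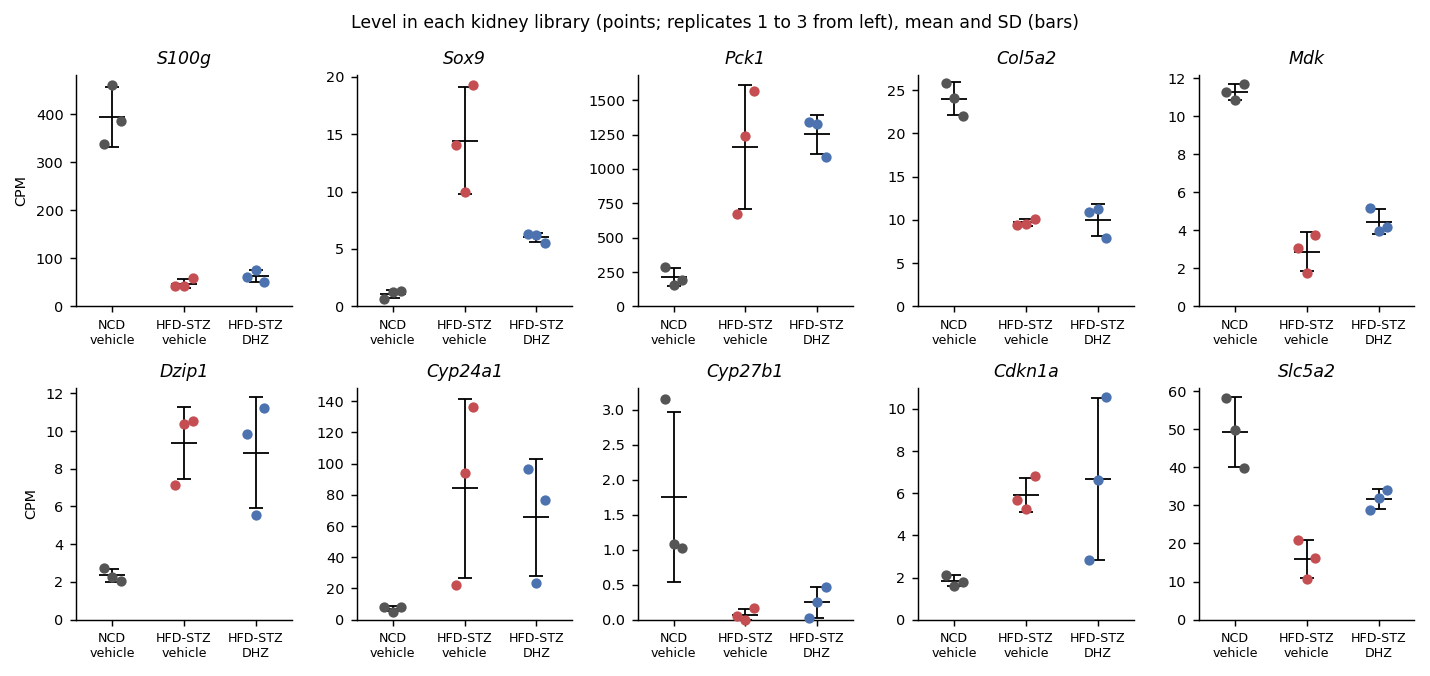
Level in CPM (y axis, each panel from 0) of 10 genes in each of the 9 libraries (points) by group, with the group mean and SD as bars. S100g, Col5a2, Mdk, Cyp27b1 and Slc5a2 sit below control in all 6 diabetic libraries and Sox9, Pck1, Dzip1, Cyp24a1 and Cdkn1a above it.

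Col5a2, Mdk and Ecm1, which encode secreted proteins, fell in the 3-group model. Col5a2, a chain of type V collagen that regulates fibril diameter, was at 25.8, 24.1 and 22.0 CPM in control kidney. It was at 9.38, 9.58 and 10.2 CPM in HFD-STZ vehicle and 10.9, 11.2 and 7.88 CPM in HFD-STZ DHZ. Both groups lay below control without overlap, with log2 differences of -1.30 (SE 0.20) and -1.26 (SE 0.20). The mean contrast was called (-1.28, SE 0.16, adjusted p = 0.0093, edgeR) and the pooled comparison just missed (adjusted p = 0.060), and the call of the contrast held in 7 of the 9 sets that leave out a library. The gene model Gm38211, which lies within Col5a2 on the same strand, was lower too, at 4.12 to 6.48 CPM in control and 0.735 to 2.28 CPM in diabetic kidney, and reads of the pair cannot be told apart.

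Mdk encodes midkine, a heparin-binding growth factor made by tubules. It was at 11.3, 10.9 and 11.7 CPM in control, 3.09, 1.75 and 3.77 in HFD-STZ vehicle and 5.2, 3.98 and 4.19 in HFD-STZ DHZ. Both groups fell without overlap (mean contrast -1.63, SE 0.21, adjusted p = 0.0093, edgeR), and the call held in 6 of the 9 sets that leave out a library. Ecm1, a secreted extracellular matrix protein, was at 35.8, 33.5 and 30.1 CPM in control, 20.6, 12 and 10.8 in HFD-STZ vehicle and 10.9, 7.91 and 10.4 in HFD-STZ DHZ. It was lower in both groups (mean contrast -1.48, SE 0.21, adjusted p = 0.019, edgeR), held in 4 of 9.

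Of the 22 tested fibroblast and matrix genes, Col5a2 was the one called in the 3-group model. There were 17 estimates below control and both groups were lower for 14, but the median was -0.85 without DHZ and -0.15 with it, and -0.40 pooled. The summed level was 295 to 317 CPM in control, 165 to 221 in HFD-STZ vehicle and 233 to 349 in HFD-STZ DHZ, which overlapped control. Ccn2, the matrix-associated connective tissue growth factor, was at 23.6, 17.2 and 25.5 CPM in control, 11, 10.5 and 7.14 in HFD-STZ vehicle and 18.4, 14.9 and 15.6 in HFD-STZ DHZ. Both group means were lower but the ranges overlapped, the pooled value of -0.77 (SE 0.28) was not called, and DHZ was above vehicle (adjusted p = 0.032, edgeR). No estimate was higher among the 14 tested endothelial genes (median -0.46) or the 11 tested mesangial and smooth muscle genes (median -0.80), against 9048 of the 17179 genes overall. Both groups were lower for 13 and 10 of them. The summed endothelial level was 155 to 201 CPM in control, 90.2 to 189 in HFD-STZ vehicle and 103 to 145 in HFD-STZ DHZ. The summed mesangial and smooth muscle level was 103 to 134, 66.4 to 105 and 66.1 to 82.4 CPM in the same order, so HFD-STZ vehicle overlapped control in both. None of the genes was called, and 1 gene in each list was lower without overlap (1.82% of all genes were). With every scaling tried, as well as without HFD-STZ vehicle replicate 2, no estimate was higher. Des, the muscle filament desmin, was the non-overlapping one among the latter, at 4.17, 5.53 and 4.50 CPM in control and 0.539 to 4.07 CPM in diabetic kidney.

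Srebf1, the transcription factor of fatty acid synthesis genes, was at 4.97 to 6.67 CPM in control and 3.41 to 4.57 CPM in diabetic kidney, and Mvk, mevalonate kinase of the cholesterol pathway, at 1.12 to 1.58 CPM and 0.135 to 1.04 CPM. Both were lower in both groups, and neither was called (log2 differences -0.60 and -0.95). In the list of 26 tested cholesterol and fatty acid synthesis genes, 21 estimates were lower, the median was -0.50 without DHZ and -0.12 with it, and both groups were lower for 16.

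In the list of 22 tested cytochrome P450 and carboxylesterase genes, 13 estimates were higher and 9 lower. Their median was 0.64, which was 0.13 without DHZ and 0.46 with it. Both groups were above control for 10 of these genes and below it for 5, against 4292 and 4288 of all 17179 genes. Ces2e was the one member called in the 3-group model, and the other enzymes named here are not on that list. Cyp2d12, a cytochrome P450, was at 46.0, 29.5 and 27.2 CPM in control, 11.1, 3.10 and 6.98 in HFD-STZ vehicle and 6.91, 6.00 and 4.62 in HFD-STZ DHZ. It was lower in both groups without overlap (mean contrast -2.40, SE 0.30, adjusted p = 0.0093, edgeR), and the call held in 8 of the 9 sets that leave out a library. Its pooled log2 difference was -1.85 in libraries without and -3.21 in libraries with Y-linked transcripts, where NCD vehicle replicate 1 was the only control. Its family holds near-identical copies, among them the pseudogene Cyp2d33-ps, which was lower in both groups as well, so both values are uncertain. Cyp2j7, another P450, was at 8.84 to 14 CPM in control and 3.46 to 7.96 CPM in diabetic kidney, and Abcc6, a membrane transporter, at 4.83 to 6.10 CPM and 1.60 to 2.21 CPM. Both were lower in both groups (mean contrasts -1.27 and -1.52), and their calls held in 2 and 5 of the 9 sets that leave out a library. Ces2e, a carboxylesterase, rose, from 1.23, 2.37 and 1.76 CPM in control to 4.55, 4.45 and 10.2 in HFD-STZ vehicle and 8.14, 11.7 and 6.51 in HFD-STZ DHZ (mean contrast 2.07, SE 0.35, adjusted p = 0.045, edgeR), and the call held in 1 of 9. Fam151a, an uncharacterised membrane protein of the tubule, was at 10.5 to 24.9 CPM in control and 2.83 to 7.68 CPM in diabetic kidney, lower in both groups. Its call held in 3 of 9.

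Dzip1, a zinc finger protein of primary cilia, rose in both groups. It was at 2.73, 2.28 and 2.04 CPM in control, 7.16, 10.4 and 10.5 in HFD-STZ vehicle and 9.82, 5.54 and 11.2 in HFD-STZ DHZ. The group values of 1.99 (SE 0.30) and 1.92 (SE 0.29) were close, the mean contrast was 1.95 (SE 0.27, adjusted p = 0.015, edgeR), and the call held in 6 of the 9 sets that leave out a library. Members of the Slitrk family of neuronal adhesion proteins went opposite ways at low counts. Slitrk4 had 1, 5 and 13 raw counts in control, 62, 39 and 113 in HFD-STZ vehicle and 80, 45 and 27 in HFD-STZ DHZ, higher in both and lower with DHZ than with vehicle (adjusted p = 0.026, edgeR). Slitrk1 had 12, 18 and 36 raw counts in control and 0 in all 3 HFD-STZ vehicle libraries, with 0, 6 and 1 in HFD-STZ DHZ, so both groups were lower and no fold is given. The call of Slitrk4 held in 2 of the 9 sets that leave out a library and that of Slitrk1 in 4.

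The called genes without a known protein role were lower in both diabetic groups in all but 1 case. Snhg11, a small nucleolar RNA host gene, was at 59.1, 116 and 97.6 CPM in control and 16.1 to 39.5 CPM in diabetic kidney. The long non-coding RNAs A830008E24Rik and Halr1 were at 1.64 to 2.37 and 5.01 to 8.93 CPM in control, against 0.0582 to 0.539 and 0.401 to 2.17 CPM in diabetic kidney. The transcript 4833411C07Rik and the pseudogene Gm2628 were also lower in both groups, and pseudogene values are uncertain because their reads can come from a near-identical gene. Gm48114 was the exception. It was at 17.4 to 23.1 CPM in control, 23.1 to 28.2 in HFD-STZ vehicle and 4.12 to 4.33 in HFD-STZ DHZ, so that its call (mean contrast -0.93) came from HFD-STZ DHZ alone, with vehicle on the other side of control. The calls of Snhg11, Halr1, 4833411C07Rik, Gm2628 and Gm48114 each held in 1 of the 9 sets that leave out a library.

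Markers of podocytes, the filter cells lost in diabetic kidney disease, did not share a side of control more often than all genes. Of 15 tested markers none was called, and both groups lay on the same side of control for 7, against 49.9% of all genes. Both groups were lower for 6 of these and higher for 1. The median of the list was -0.39 without DHZ and 0.16 with it. Nphs1, nephrin of the slit diaphragm, was at 10.6, 11.2 and 10.2 CPM in control, 10.1, 2.70 and 8.55 in HFD-STZ vehicle and 5.00, 5.04 and 3.49 in HFD-STZ DHZ. Synpo, the foot process protein synaptopodin, was at 9.41, 12.9 and 11.5 CPM, 8.78, 2.70 and 6.46 CPM, and 7.61, 7.91 and 7.97 CPM in the same order. Both were lower in both groups without overlap, as were 1.82% of all genes. Their log2 differences were -0.86 (SE 0.35) and -0.69 (SE 0.29), and neither was called. HFD-STZ vehicle replicate 2, with the fewest nuclear counts, had the lowest value of both.

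No gene of the NRF2, inflammatory or macrophage lists was called in either model. Both groups were above control for 14 of 19 tested NRF2 targets, against 4292 of all 17179 genes. The median of these targets was 0.60, with 0.17 without DHZ and 1.01 with it. Gsta1, a glutathione transferase, was the NRF2 target without overlap, at 9.18 to 14.2 CPM in control and 15.5 to 41.2 CPM in diabetic kidney (log2 difference 1.17, SE 0.30), higher in both. Among 18 tested inflammatory genes both groups were above control for 9, with medians of 0.17 without DHZ and 0.47 with it, and with library size as the only scaling 10 estimates were higher instead of 15. Cxcl10, an interferon-induced chemokine, was at 0.481, 1.04 and 1.30 CPM in control, 1.57, 2.97 and 1.20 in HFD-STZ vehicle and 2.09, 2.16 and 6.66 in HFD-STZ DHZ, above control in both by estimate and overlapping it. Macrophage markers had a median of 0.67 over 13 tested genes, which was 0.15 without DHZ and 1.00 with it. Their summed level ranged from 46.0 to 62.6 CPM in control and from 34.1 to 78.4 CPM in diabetic kidney, so these overlapped.

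**Figure D4:**
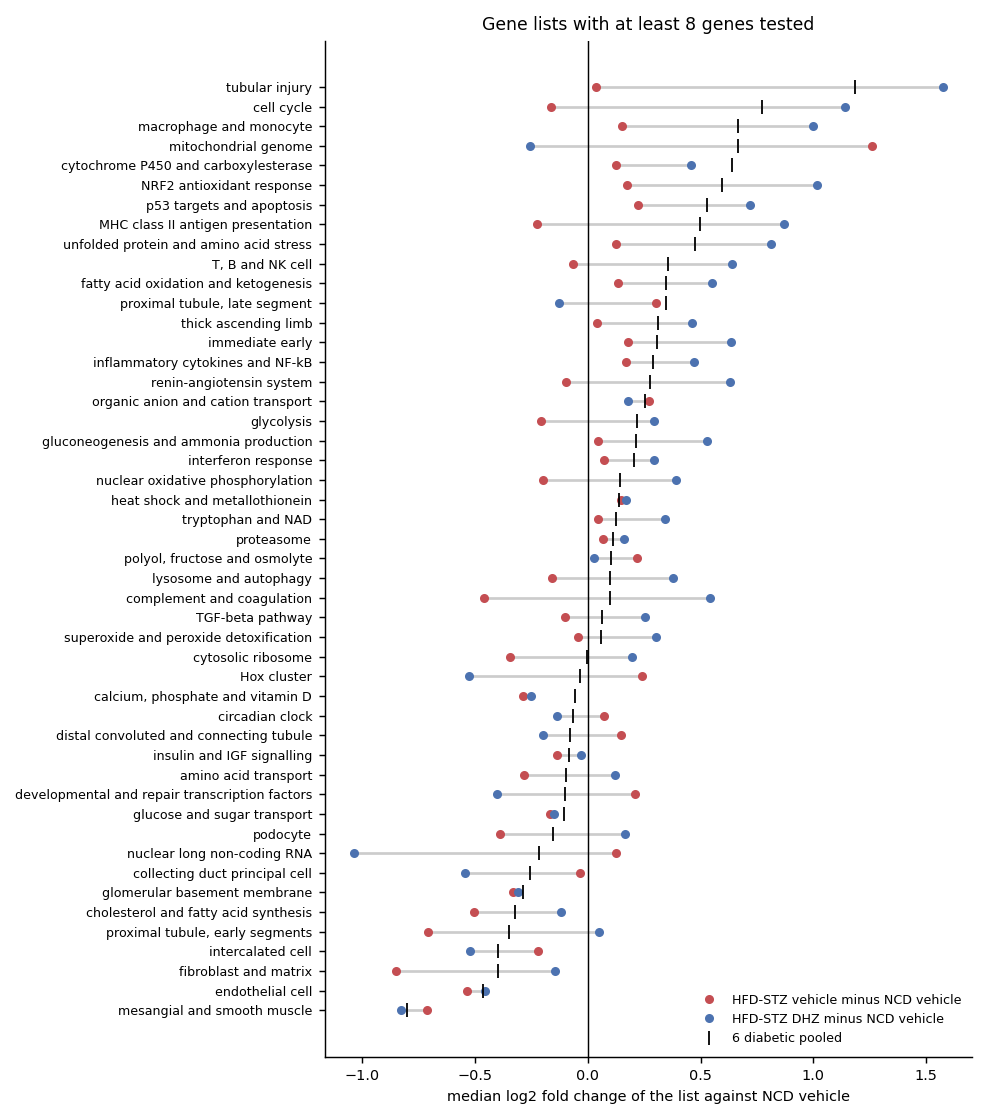
Median log2 fold change against control (x axis) of each gene list with at least 8 tested genes (y axis), for HFD-STZ vehicle, HFD-STZ DHZ and the 6 diabetic libraries pooled. The endothelial and mesangial lists lie left of 0 in both groups, while the tubular injury, cell cycle and macrophage lists lie far apart between the groups.

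Some differences of the untreated model were not shared by the treated group. In HFD-STZ vehicle against control 9 genes were called (0.0524%), of which 6 are among the 24. The other three were Slc6a19, Acmsd and Greb1. Slc6a19, the main neutral amino acid carrier of the proximal tubule, was at 17.9, 15.9 and 14.4 CPM in control, 5.58, 5.53 and 3.57 in HFD-STZ vehicle and 21.2, 14.3 and 17.2 in HFD-STZ DHZ, so the treated group lay on the other side of control by estimate (-1.73 and 0.13 on the log2 scale). Acmsd, an enzyme that limits NAD synthesis from tryptophan, was lower in both by estimate, by -1.73 and -0.25. Greb1, an oestrogen-induced gene, was higher in both by estimate, by 3.02 and 0.85. The ranges of all 6 diabetic and 3 control libraries overlapped for these genes, and the diabetic groups differed from each other, with adjusted p of 0.0031, 0.0050 and 0.0068 in that order (edgeR). In HFD-STZ DHZ against control 2352 genes (13.7%) were called. Among the 594 genes without overlap 36 differed between DHZ and vehicle, where 22.1% of all genes tested did. The 594 were picked because all their diabetic libraries lay on one side of control, so they and all genes are not like sets.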

How the data were processed

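RNA of whole mouse kidney was sequenced, with 3 libraries for each of 3 groups. The authors deposited a table of raw counts per gene, whole numbers for 55359 Ensembl genes, with 0 columns beyond these libraries. The submitters' processing notes name FastQC, Trim Galore, STAR and the build GRCm39 (mm39). For tool versions, counter, use of strand, treatment of multiply mapped reads and annotation release, the sources used here give nothing, so reads shared by near-identical or overlapping genes cannot be separated. Symbols were matched by Ensembl identifier for 94.1% of genes in the table and 99.5% of those tested.

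The analysis ran in edgeR 4.0.16 under R 4.3.3. The filter filterByExpr, applied with the 3 groups, left 17179 genes, and TMM factors (trimmed mean of M values) scaled the libraries. The robust quasi-likelihood test compared 6 diabetic with 3 control libraries without covariates (7 residual degrees of freedom), with Benjamini-Hochberg adjustment over all genes, called at an adjusted p below 0.05. All tests are two-sided. A 3-group model (6 residual degrees of freedom) gave each group's value, the difference between the diabetic groups and the contrast of their mean with control. Standard errors come from the F statistic. Alternatives included DESeq2 1.42.0 and limma-voom (limma 3.58.1), other scalings and filters, a term for Y-linked transcripts (above 5 CPM of the total count), a replicate block and leaving out each library. Scripts were tested on simulated data. A count of 0 allows up to 3 counts, and such limits cover counting error only.

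The gene lists (57 lists with 931 genes) were written from textbook knowledge and are described by counts and medians. Genes were to be named if called in the pooled comparison, within a limit of 14 in each direction at a mean log2 CPM of at least 1, with the members of the lists that were called, and with the 2 lowest p-values in the lists for tubular injury, matrix, podocyte, inflammation, calcium, sugar transport and early proximal tubule. Because 1 gene was called, genes called in the 3-group contrast and list members without overlap were added after their values were seen. The comparison and the lists were chosen with earlier results of these data known. Promoters were looked up for 35 genes and found for 23, in RefSeq sequences of GRCm38.p6. Some genes that were called or listed are not reported here.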

Additional observations from a re-analysis of the deposited data

Results flagged for a closer look

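Of 34 genes checked, 7 had a difference between the diabetic groups that was itself called in edgeR's 3-group test (adjusted p below 0.05), although their pooled value or mean contrast is given above. The log2 difference of HFD-STZ DHZ minus HFD-STZ vehicle was -1.28 for Sox9, -1.78 for Slitrk4, -1.89 for A830008E24Rik, -2.19 for Gm2628 and -2.59 for Gm48114. It was 0.78 for Ccn2 and 0.98 for Slc5a2, in both of which DHZ lay nearer to control. For Sox9 and Slitrk4 DHZ also lay nearer to control, and for A830008E24Rik and Gm2628 it lay further below control than vehicle. For Gm48114 DHZ lay below control and vehicle above it by estimate.

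In 4 genes 1 of the 6 diabetic libraries stood far from the other diabetic libraries, a kind of gap that chance gives in about 1 in 20 groups. Cxcl1 was at 15.7 CPM and Cxcl10 at 6.66 CPM in HFD-STZ DHZ replicate 3. Ecm1 was at 20.6 CPM in HFD-STZ vehicle replicate 1, still below all control libraries, and Slitrk1 at 0.0925 CPM in HFD-STZ DHZ replicate 2, which is 6 raw counts.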

How the results depend on the processing

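The number of genes called in the pooled comparison was low and moved with the method. Against 1 called gene, DESeq2 called 62 (35 higher, 27 lower, 62 with both groups on the same side of control), limma-voom 9 (1 higher, 8 lower, 9 on the same side), no low-count filter 21 (6 higher, 15 lower, 21 on the same side) and the 3-group mean contrast 24 (5 higher, 19 lower, 23 on the same side). Library size alone gave 4 (0 higher, 4 lower, 4 on the same side), a stricter filter 4 (0 higher, 4 lower, 4 on the same side) and a term for Y-linked transcripts 5 (1 higher, 4 lower, 5 on the same side). Only libraries with, or only those without, Y-linked transcripts gave 0 calls each in edgeR, with 291 and 597 genes at an unadjusted p below 0.05 and fewer samples in each fit. Without and with Y-linked transcripts, in that order, the log2 difference was 0.94 and 4.31 for Cxcl1 and 0.71 and 2.90 for Cxcl10. It was -0.73 and -1.51 for Slc5a2, 2.85 and 3.65 for Cyp24a1 and -2.99 and -3.60 for Cyp27b1. It was -0.92 and -1.64 for Slc34a3 and 1.54 and 0.62 for Gsta1. The values with Y-linked transcripts rest on NCD vehicle replicate 1 as the only control. They include HFD-STZ DHZ replicate 3, the outlying library for Cxcl1 and Cxcl10. Leaving out each library gave 1 to 5 calls, 0 to 1 higher, 1 to 5 lower and 1 to 5 on the same side, the 5 without HFD-STZ vehicle replicate 1 and 3 without HFD-STZ DHZ replicate 2. The 24 of the mean contrast became 131 with the Y-linked term, and 4 to 104 when leaving out each library. Except where the alternative's construction shows it, the cause was not tested. Over the named genes, 1259 values kept the direction and the call status of the pooled comparison, which was not called for every gene but S100g. A further 90 values passed the threshold, 3 lost it and 0 reversed. Many of these genes were named because their libraries did not overlap, so reversals were unlikely from the start and their absence is no support.

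Replicate numbers do not pair the samples: the 9 same-numbered pairs had correlations of deviations from -0.474 to 0.255, of which 3 were over 0.1. With the replicate block 0 genes were called in the pooled comparison (660 at an unadjusted p below 0.05, S100g at an adjusted p of 0.0578 in edgeR), 0 higher, 0 lower and 0 on the same side, and 8 in the mean contrast. Alternatives for the mean contrast and the list counts were chosen after seeing the data.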

Other observations

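Further genes lay on one side of control in all 6 diabetic libraries, with both groups on the same side and without being called in the pooled comparison. They were chosen after their values were seen. Gulo, the enzyme of the last step of vitamin C synthesis, was at 0, 0 and 0.153 CPM in control, 3.47, 1.48 and 6.26 in HFD-STZ vehicle and 3.94, 1.67 and 0.552 in HFD-STZ DHZ. Gulo is mainly a liver gene, and the 9 liver markers, of which 8 passed the filter, summed to 38.6 to 99.8 CPM in control, 44.6 to 277 CPM in HFD-STZ vehicle and 75.1 to 249.2 CPM in HFD-STZ DHZ. This sum was 99.8 to 277 CPM in the libraries with Y-linked transcripts and 38.6 to 81.6 CPM in those without. Cyp2e1 is both a liver marker and a member of the list of male-biased kidney genes, and the part of sex in the sum was not tested. Of the 8 tested liver markers, 6 estimates were higher and 2 lower. Their median log2 difference was 0.81, with 0.68 without DHZ and 0.72 with it. Alb, which encodes albumin, was at 1.60 to 3.66 CPM in control and 0.944 to 4.00 CPM in diabetic kidney. The part of liver RNA in the Gulo result was not tested. Ccl28, a mucosal chemokine, was at 0.291 to 1.05 CPM in control and 1.14 to 18.1 CPM in diabetic kidney, with the lowest diabetic library close to control. Rarres2, which encodes the adipokine chemerin, was at 7.49, 7.27 and 6.93 CPM in control, 17.2, 53.9 and 122 in HFD-STZ vehicle and 23.4, 20.1 and 44.4 in HFD-STZ DHZ. Slc25a25, a mitochondrial ATP and phosphate carrier, was at 3.65 to 7.54 CPM in control and 11.9 to 36.3 CPM in diabetic kidney. Slc16a6, a carrier of the monocarboxylate family, was at 6.44 to 18.9 CPM and 21.2 to 113 CPM, and Vnn1, a pantetheinase, at 22.3 to 27.8 CPM and 36.8 to 71.8 CPM.

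Other genes were below control in both groups, and they too were chosen after their values were seen. Asl, argininosuccinate lyase of the urea cycle, was at 45.4, 32.7 and 26.1 CPM in control and 16.6 to 22.7 CPM in diabetic kidney, with a log2 difference of -0.83 (SE 0.21). Prodh, the first enzyme of proline breakdown, was at 22.0 to 29.6 CPM and 8.77 to 17.8 CPM, and Gcat, which works in threonine breakdown, at 6.10 to 8.39 CPM and 1.08 to 4.25 CPM. Dpep1, a brush border dipeptidase, was at 20.2 to 36.9 CPM in control and 7.78 to 16.8 CPM in diabetic kidney.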
